A study of Mus musculus with 8 samples.

Results

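The genes described here encode 10 regulators of G protein signaling and relatives of them: Rgs9, Rgs7, Rgs6 and the membrane anchor Rgs7bp of the R7 group, Rgs2, Rgs4 and Rgs8 of the R4 group, Rgs10 and Rgs14 of the R12 group, and Rgs20 of the RZ group. They were taken by gene symbol from the count matrices, and all 10 were found among 32285 genes. A G protein-coupled receptor switches on a G protein by letting its alpha subunit exchange GDP for GTP, and the signal lasts until the GTP is hydrolyzed. RGS proteins bind the active alpha subunit and speed that hydrolysis, so they shorten the signal. In the striatum, Rgs9 in its brain isoform is best known for limiting dopamine and opioid receptor signaling in projection neurons, where it works together with the beta subunit Gnb5 and an anchor such as Rgs7bp.

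Nuclear RNA was counted in single nuclei from frozen striatum of 32 mice, 12 weeks of age, by the 10x Genomics Multiome assay, which reads RNA and open chromatin from the same nucleus. The mice belonged to 8 inbred strains, 4 mice each: the classical strains C57BL/6, A/J and 129S1/SvImJ, the diabetes-prone NOD/ShiLtJ and the obese NZO/HlLtJ, and the wild-derived WSB/EiJ, CAST/EiJ and PWK/PhJ. No group carried a transgene or received a treatment according to the labels, and strain is the factor by which they group the mice. The sex of single mice was not used here, and strain groups may differ in it. The study compared the strains within each cell type. The C57BL/6 mice are C57BL/6J in the design text and C57BL/6NJ in the deposited table, and NZO/HlLtJ is spelled NZO/H1LtJ in the design text. Each of 4 batches pooled nuclei of 8 mice, 4 male and 4 female, with 1 mouse of every strain, so a mouse is named here by its strain and batch.

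The authors' annotation kept 55672 nuclei in 18 clusters, with 944 to 4416 nuclei per mouse (median 1613). The median was 4329 UMIs per nucleus overall and 3232 in batch 3, against 4593 to 4931 in the other batches. Barcode sequences shared between batches occurred for 3048 nuclei, 5.47% of those kept. The named cell types held their markers: all 5 astrocyte, oligodendrocyte and macrophage markers peaked in the clusters of those names, as did all 5 markers of eccentric projection neurons in the second Drd1+ cluster, 4 of 5 Drd2+ and 3 of 5 Drd1+ projection neuron markers. Of the 4 mural markers, 3 peaked in the mural cells, and Rgs5 did so in endothelium.

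Promoter sequences are shown for 6 members, the 4 genes of the R7 group, whose strain differences are described further on, and the R4 genes Rgs2 and Rgs4, whose promoters each held 2 matches to TGACG. Each runs 5′ to 3′ on the strand of the gene, from 250 bases before the transcription start, over 300 bases, and comes from RefSeq on GRCm38.p6. Capitals mark the motifs TATAAA (the TATA box), TGACG (the core of the cAMP response element) and CCAAT, searched on both strands, so that CGTCA and ATTGG are the opposite-strand forms of the last pair.
Rgs9 promoter, chr11:109298132-109298431 (minus strand): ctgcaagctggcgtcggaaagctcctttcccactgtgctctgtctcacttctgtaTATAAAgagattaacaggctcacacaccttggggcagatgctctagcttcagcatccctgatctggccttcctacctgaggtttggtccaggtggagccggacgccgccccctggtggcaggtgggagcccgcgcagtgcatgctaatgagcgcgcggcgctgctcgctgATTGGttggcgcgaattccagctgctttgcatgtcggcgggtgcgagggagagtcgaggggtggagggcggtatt
Rgs7 promoter, chr1:175492496-175492795 (minus strand): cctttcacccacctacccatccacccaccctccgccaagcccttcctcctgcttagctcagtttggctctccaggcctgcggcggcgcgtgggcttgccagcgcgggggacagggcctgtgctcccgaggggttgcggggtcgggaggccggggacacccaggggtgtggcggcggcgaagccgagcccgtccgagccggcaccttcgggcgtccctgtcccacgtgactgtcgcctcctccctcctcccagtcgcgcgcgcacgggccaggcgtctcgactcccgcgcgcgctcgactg
Rgs6 promoter, chr12:82617249-82617548 (plus strand): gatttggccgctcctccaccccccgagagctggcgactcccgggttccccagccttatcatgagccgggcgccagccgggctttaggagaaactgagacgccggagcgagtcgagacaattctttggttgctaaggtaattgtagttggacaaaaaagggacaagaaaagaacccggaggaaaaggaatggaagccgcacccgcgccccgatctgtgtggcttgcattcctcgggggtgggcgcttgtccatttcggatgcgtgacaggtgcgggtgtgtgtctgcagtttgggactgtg
Rgs7bp promoter, chr13:105054881-105055180 (minus strand): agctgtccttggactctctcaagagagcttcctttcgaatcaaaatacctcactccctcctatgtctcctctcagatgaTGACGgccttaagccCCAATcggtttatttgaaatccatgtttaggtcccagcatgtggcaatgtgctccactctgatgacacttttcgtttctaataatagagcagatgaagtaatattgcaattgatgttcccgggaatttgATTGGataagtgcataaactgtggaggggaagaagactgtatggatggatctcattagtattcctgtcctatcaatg
Rgs2 promoter, chr1:144004100-144004399 (minus strand): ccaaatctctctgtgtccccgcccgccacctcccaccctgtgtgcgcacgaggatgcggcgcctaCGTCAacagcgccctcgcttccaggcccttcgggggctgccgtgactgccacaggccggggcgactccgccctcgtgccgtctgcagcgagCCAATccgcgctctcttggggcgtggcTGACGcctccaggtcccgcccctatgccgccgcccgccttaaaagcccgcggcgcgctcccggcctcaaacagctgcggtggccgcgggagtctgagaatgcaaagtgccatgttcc
Rgs4 promoter, chr1:169747593-169747892 (minus strand): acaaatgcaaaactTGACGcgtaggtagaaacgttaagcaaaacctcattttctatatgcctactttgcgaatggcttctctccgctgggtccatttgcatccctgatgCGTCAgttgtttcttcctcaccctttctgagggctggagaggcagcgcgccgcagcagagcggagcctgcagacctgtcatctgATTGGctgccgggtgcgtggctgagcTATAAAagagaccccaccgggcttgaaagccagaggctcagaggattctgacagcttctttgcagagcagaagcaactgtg

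An accessible region of the deposited list overlapped 5 of these 6 promoters, and none overlapped that of Rgs7bp. The RefSeq table held promoters of 8 members, and a region overlapped at least 1 promoter of the other 7. Of all 32851 RefSeq promoters, 53.1% were overlapped by a region, in whole or in part, and the list does not say in which nuclei a region was open. The TGACG motif occurred at 67 and 185 bases before the start of Rgs2 and at 141 and 236 bases before that of Rgs4. The region at the Rgs4 promoter ends within it, at chr1:169747759, and holds neither of these Rgs4 matches. TGACG occurred once before the start of Rgs7bp, at 171 bases, and 20.8% of all promoters held at least 1 match. TATAAA lay 31 bases before the start of Rgs4 and 195 bases before that of Rgs9, with a match in 13.6% of all promoters. CCAAT was found in 37.4% of all promoters, among them those of Rgs9, Rgs2 and Rgs4, and that of Rgs7bp held 2 matches, at 156 and 27 bases before the start. No match to these motifs was found in the windows of Rgs7 and Rgs6. The starts used for these windows lie inside the gene spans given next and not at their 5′ ends. The genes differ greatly in size: Rgs6 spans 545511 bases (chr12:82616551-83162061) on GRCm38.p6 with 95 regions, Rgs7 433787 bases (chr1:175059076-175492862) with 82 regions, and Rgs9 72834 bases (chr11:109225348-109298181) with 23 regions. Rgs2 spans 4812 bases (chr1:143999338-144004149) and Rgs4 6166 bases (chr1:169741477-169747642), with 2 regions each. Longer genes give more nuclear reads from introns, so levels are compared between clusters and strains and not between genes.

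Each member had its own distribution over the clusters. The following levels are counts-per-million values (CPM) over all nuclei of a cluster, and since the clusters were made from expression they are described without a test. Rgs9 was highest in Drd2+ neurons (852 CPM) and Drd1+ neurons (822 CPM), the projection neurons of the indirect and direct pathways, followed by mural cells (585 CPM) and the second Drd1+ cluster (579 CPM). The order of the last pair is not resolved: the means over mice were 528 ± 198 CPM (n = 20) and 586 ± 122 CPM (n = 32), and they differed within mice by less than 1 SD. Oligodendrocytes (41.4 CPM), astrocytes (45.3 CPM) and macrophages (49.1 CPM) held a like low level. After every nucleus was thinned to 1000 UMIs, Rgs9 had a UMI in 53.8% of Drd1+ nuclei and in 3.79% of oligodendrocyte nuclei. Unthinned, the shares were 96.4% and 6.50%, at median depths of 6505 and 1640 UMIs.

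The mural and endothelial values of Rgs9 came with projection neuron markers. The summed level of Ppp1r1b, Pde10a, Bcl11b and Meis2 was 3804 CPM in mural cells and 1958 CPM in endothelium, against 4969 CPM in Drd1+ neurons, 5481 CPM in Drd2+ neurons and 369 CPM in oligodendrocytes. None of the 4 markers was at 0 there, and 37.7% of mural nuclei had an Rgs9 UMI. The single markers differed in how they separated the clusters. Meis2 was 3092 CPM in the cluster Unknown, where Rgs9 was 42.6 CPM. Ppp1r1b was 154 CPM in mural cells, 160 CPM in Drd1+ neurons and 124 CPM in oligodendrocytes. In the same clusters Pde10a was 2311, 3032 and 104 CPM, and Bcl11b 300, 404 and 49.4 CPM. What part these markers have in the Rgs9 values of vascular clusters was not tested.

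**Figure D1:**
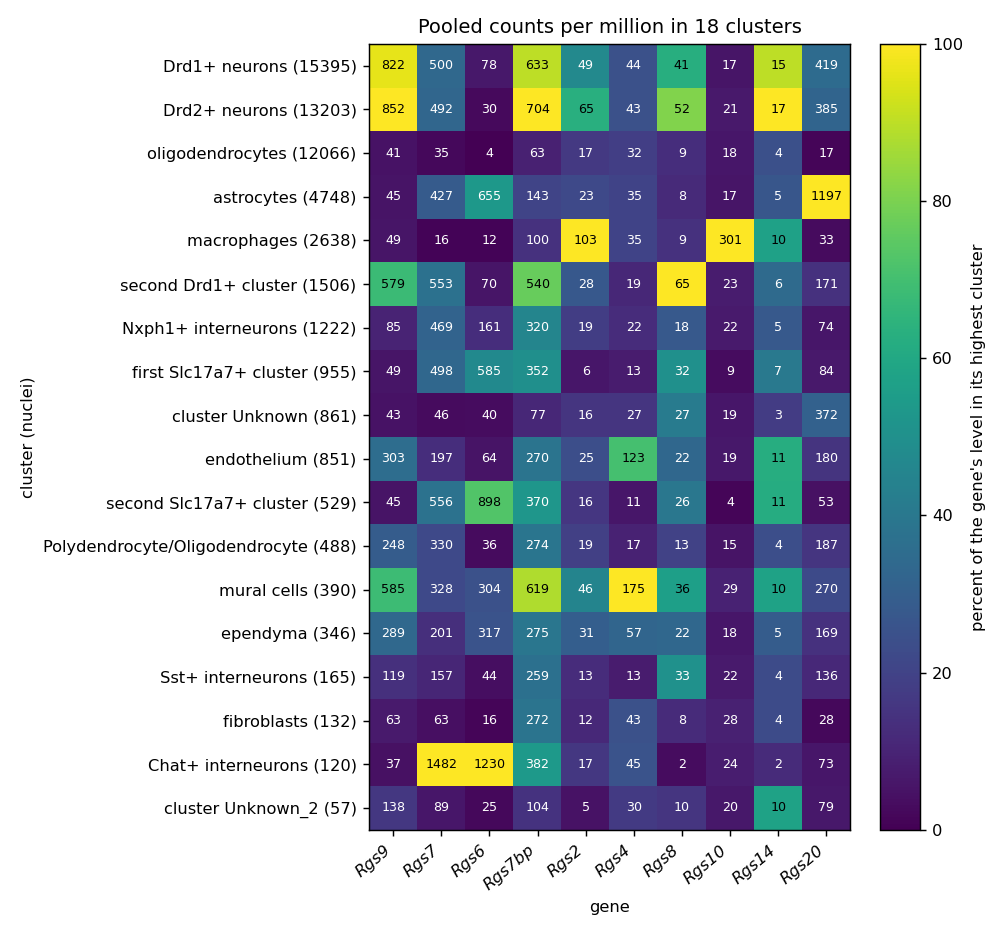
Levels of the 10 genes in the 18 clusters. Numbers are pooled CPM, rows are clusters with their number of nuclei, columns are genes, and colour gives the percent of the gene's level in its highest cluster. Rgs9 and Rgs7bp peak in projection neurons, Rgs7 and Rgs6 in Chat+ interneurons, Rgs20 in astrocytes and Rgs10 in macrophages.

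The other R7 genes were spread more widely. Rgs7 and Rgs6, which encode catalytic R7 proteins like Rgs9, were both highest in Chat+ interneurons (1482 CPM for Rgs7, 1230 CPM for Rgs6), a cluster of 120 nuclei of which 3 mice gave 10 or more. Next for Rgs7 were the second Slc17a7+ cluster (556 CPM), the second Drd1+ cluster (553 CPM) and Drd1+ neurons (500.0 CPM). The first Slc17a7+ cluster had 498 CPM, Drd2+ neurons 492 CPM, Nxph1+ interneurons 469 CPM and astrocytes 427 CPM. Rgs7 was 34.6 CPM in oligodendrocytes and 15.8 CPM in macrophages. Drd1+ and Drd2+ neurons differed within mice by less than 1 SD. Within mice, the log2 difference of astrocytes from Drd1+ neurons ran from -1.39 to -1.22 in CAST/EiJ and from 0.57 to 0.79 in C57BL/6. Rgs6 was high in the second Slc17a7+ cluster (898 CPM), astrocytes (655 CPM) and the first Slc17a7+ cluster (585 CPM), was 77.8 CPM in Drd1+ neurons, and was lowest in oligodendrocytes (3.86 CPM). Rgs7bp, the anchor of R7 proteins at the membrane, was 704 CPM in Drd2+ neurons, 633 CPM in Drd1+ neurons, 619 CPM in mural cells and 540.4 CPM in the second Drd1+ cluster, and 63.4 CPM in oligodendrocytes. What part the projection neuron markers of the mural cells, described above for Rgs9, have in their Rgs7bp value was not tested.

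The R4, R12 and RZ genes divided between neurons and other cells. Rgs2, which acts mainly on Gq and responds quickly to stimuli, was highest in macrophages (103 CPM), then in Drd2+ neurons (64.9 CPM) and Drd1+ neurons (48.6 CPM). Rgs4, a regulator of Gi and Gq signals, was highest in mural cells (175 CPM) and endothelium (123 CPM), with 43.6 CPM in Drd1+ neurons, 43.3 CPM in Drd2+ neurons and 32.3 CPM in oligodendrocytes. The endothelium cluster also held mural markers, whose summed level (4 genes) was 2744 CPM there and 3905 CPM in mural cells. Rgs5 made up most of the endothelial sum and was higher there (1854 CPM) than in mural cells (403 CPM). The others were lower in endothelium: Vtn 731 against 2692 CPM, Pdgfrb 119 against 662 CPM and Kcnj8 40.6 against 149 CPM. The part of these 4 markers in the Rgs4 value of endothelium was not tested. Rgs8 was highest in the second Drd1+ cluster (64.7 CPM), Drd2+ neurons (52.4 CPM) and Drd1+ neurons (40.6 CPM) and was 8.57 CPM in oligodendrocytes. Rgs10, known from microglia, was 301 CPM in macrophages and between 4.23 and 28.9 CPM in the other 17 clusters. After thinning, 25.6% of macrophage nuclei and 1.73% of Drd1+ nuclei had an Rgs10 UMI, with 1.81% of oligodendrocyte nuclei. Rgs14, a scaffold that also binds Ras proteins, had 17.1 CPM in Drd2+ neurons, 15.4 CPM in Drd1+ neurons and 10.7 CPM or less elsewhere. Rgs20 was highest in astrocytes (1197 CPM), followed by Drd1+ neurons (419 CPM), Drd2+ neurons (385 CPM) and the cluster Unknown (372 CPM), and was 16.7 CPM in oligodendrocytes. Within mice, differences of less than 1 SD were found for Rgs4 between mural cells and endothelium, for Rgs8 between the second Drd1+ cluster and Drd2+ neurons, and for Rgs20 between the cluster Unknown and either kind of projection neuron next to it.

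Since Drd1+ and Drd2+ nuclei came from the same mice, their levels were also set side by side within each mouse, again as a description. Rgs6 was lower in Drd2+ than in Drd1+ neurons in 32 of 32 mice, by a mean log2 difference of -1.45 ± 0.51 (SD, n = 32). Rgs7bp was higher in Drd2+ neurons in 32 of 32 mice (0.16 ± 0.069), Rgs8 in 31 (0.35 ± 0.19), Rgs2 in 30 (0.41 ± 0.26) and Rgs9 in 27 (0.054 ± 0.065). Rgs7 was higher in Drd2+ neurons in 15 mice and Rgs4 in 16, with mean log2 differences of -0.020 ± 0.091 and -0.018 ± 0.23. The second Drd1+ cluster stood below Drd1+ neurons in all 32 mice for Rgs9 (-0.50 ± 0.22) and Rgs20 (-1.23 ± 0.27), and above them in 30 mice for Rgs8 (0.67 ± 0.47).

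The genes whose levels over the 18 clusters ran most like those of a member were ranked by Pearson's r of log2 CPM among 15711 genes, without a test, since all clusters were drawn from one set of libraries. For Rgs9 these were Epyc (r = 0.965), Gm9989 (0.957) and Ric8b (0.951), Ric8b being a chaperone of Gs-type alpha subunits. Rgs7 ran with Adgrb3 (0.932), Slitrk5 and Dab1, and Rgs6 with Gm29530 (0.906), Slc20a1 and Mical2. Rgs7bp was most like Caln1 (0.942), Slc2a13 and Ntrk3. Rgs2 was closest to Pfkfb3 (0.852), Fam102b and Ivns1abp, Rgs4 to Mllt6 (0.835), the pericyte gene Rgs5 (0.823) and Gper1, and Rgs8 to Syt5 (0.904), Add2 and Sipa1l1. Rgs10 ran with Runx1 (0.895), the complement gene C1qb (0.874) and Siglech (0.873), genes of microglia. Rgs14 came nearest to Ptk2b (0.840), Celf1 and Kcnv1, and Rgs20 to Gm36756 (0.820), Atl2 and Slitrk2. Among the members themselves, Rgs7 and Rgs7bp had r = 0.776 and Rgs6 and Rgs7 had 0.765.

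Strain differences were tested in the 9 clusters that had at least 3 mice of every strain with 10 or more nuclei. All levels by strain are CPM scaled by TMM, given as mean ± SD of 4 mice. A member was called when the strain term of edgeR's quasi-likelihood model had a Benjamini-Hochberg adjusted p under 0.05 over all genes of the cluster. Of the 10 members, 7 were called in Drd1+ neurons, where 61.7% of all genes tested were called, and 8 in Drd2+ neurons, where 55.9% were. Of the 7 members that passed the expression filter in oligodendrocytes, 2 were called (34.8% of all genes tested), and of 7 in astrocytes, 3 (21.5%). In macrophages 1 of 3 was called (24.8%) and in the second Drd1+ cluster 5 of 6 (17.3%). None was called among 5 in Nxph1+ interneurons (1.53%), 6 in endothelium (3.23%) or 4 in the cluster Polydendrocyte/Oligodendrocyte (1.24%), where edgeR's unadjusted p was below 0.05 for 0, 2 and 1 members and DESeq2 called 0 in each. The counts are over the members that passed the filter and are given as a description beside those of all genes. The median span between the highest and the lowest strain mean was 0.68 log2 units for the members and 0.65 for all genes tested in Drd1+ neurons, and 0.69 and 0.64 in Drd2+ neurons. In the second Drd1+ cluster these medians were 0.71 and 0.74, in astrocytes 0.62 and 0.74, in oligodendrocytes 0.64 and 0.68, and in macrophages 0.94 and 0.84. In Nxph1+ interneurons they were 1.20 and 0.75, in endothelium 1.20 and 0.91, and in Polydendrocyte/Oligodendrocyte 1.80 and 1.09.

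A contrast of each strain with the average of the other 7 followed. Of 80 pairs of member and strain, 16 were called in Drd1+ neurons, where 20.4% of all pairs of gene and strain were, and 19 in Drd2+ neurons (17.7% of all pairs). In astrocytes 10 of 56 were called (4.95%), all of them for Rgs7, Rgs6 and Rgs20.

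**Figure D2:**
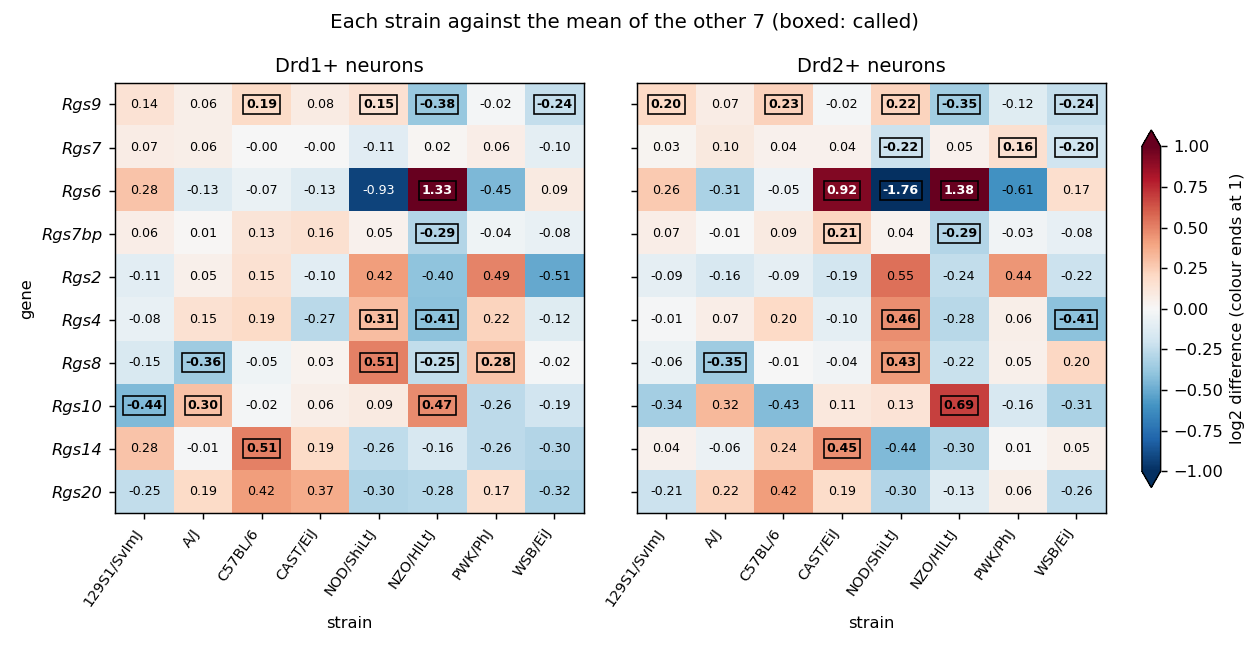
Log2 difference of each strain from the mean of the other 7 in Drd1+ (left) and Drd2+ (right) neurons, genes in rows and strains in columns. Boxes mark contrasts called by edgeR at an adjusted p under 0.05, 16 in Drd1+ and 19 in Drd2+ neurons. The boxed values of Rgs6 are the largest, up to 1.38 in NZO/HlLtJ and down to -1.76 in NOD/ShiLtJ in Drd2+ neurons.

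NZO/HlLtJ had the lowest Rgs9 in both kinds of projection neuron. In Drd1+ neurons its 4 mice had 610, 687, 605 and 709 CPM, the mean being 652 ± 53.0, while the C57BL/6 mice had 948, 948, 893 and 900 CPM (922 ± 29.8). In Drd2+ neurons NZO/HlLtJ had 690.0 ± 51.8 CPM and C57BL/6 979 ± 4.83 CPM. The values of these strains did not overlap in either cluster. WSB/EiJ was the next lowest, with 710.3 ± 28.6 CPM (Drd1+) and 737 ± 33.7 CPM (Drd2+), and PWK/PhJ varied most between mice, from 713 to 914 CPM in Drd1+ neurons. The strain term had an adjusted p of 1.32e-07 in Drd1+ and 9.63e-09 in Drd2+ neurons, and kept its call in all 10 alternatives in both. From the average of the other 7 strains, NZO/HlLtJ differed by -0.38 (SE 0.056, adjusted p = 1.25e-06) in Drd1+ and -0.35 (SE 0.056, adjusted p = 5.30e-06) in Drd2+ neurons. WSB/EiJ differed by -0.24 in both clusters, and C57BL/6 by 0.19 and 0.23, of which the first was not called without batch 2. Strain accounted for 78.5% of the variance of Rgs9 between mice in Drd1+ neurons and 83.6% in Drd2+ neurons, against medians of 44.96% and 42.5% over all genes tested.

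In the second Drd1+ cluster, Rgs9 was again lowest in NZO/HlLtJ (501 ± 111 CPM) and was highest in NOD/ShiLtJ (773 ± 113 CPM), with overlapping mice and an adjusted p of 0.00354 in edgeR. That call was lost without batch 2 (0.0880) or batch 3 (0.126). In the glial clusters, where Rgs9 was low, the strain term did not pass (adjusted p = 0.367 in oligodendrocytes and 0.845 in astrocytes).

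Rgs7bp was highest in CAST/EiJ and lowest in NZO/HlLtJ in all 3 projection neuron clusters. The means were 698 ± 41.4 and 529.7 ± 42.9 CPM in Drd1+ neurons (adjusted p = 0.00703), 809 ± 105 and 594 ± 25.7 CPM in Drd2+ neurons (0.0250), and 744 ± 156 and 448 ± 63.4 CPM in the second Drd1+ cluster (0.000335). The 4 mice of NZO/HlLtJ lay below the 4 of CAST/EiJ in each of these clusters. Without batch 3 the edgeR call was lost in Drd1+ neurons (adjusted p = 0.0512), and without batch 1, 2 or 3 it was lost in Drd2+ neurons (0.0644, 0.0776 and 0.0794), as it was without the 5% of nuclei with most UMIs (0.0517). NZO/HlLtJ against the other 7 strains differed by -0.29 in both (SE 0.069 and 0.080, adjusted p = 0.00183 and 0.00821).

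The proteins that R7 members work with are Gnb5, a beta subunit needed for their stability, the anchors Rgs9bp and Rgs7bp, and the orphan receptors Gpr158 and Gpr179. Of the 4 that are no members, 2 passed the expression filter in Drd1+ neurons and both were called, as in Drd2+ neurons (61.7% and 55.9% of all genes tested were called). Gpr158 had 1169 ± 82.3 CPM in CAST/EiJ and 844 ± 93.6 CPM in NZO/HlLtJ in Drd1+ neurons (adjusted p = 0.000388), and 1383 ± 103 and 948 ± 95.8 CPM in Drd2+ neurons. Gnb5 was lowest in NZO/HlLtJ in Drd1+ neurons (140.5 ± 6.86 CPM) and highest in A/J (188 ± 17.4 CPM, adjusted p = 0.00316). Both pairs of strains did not overlap. In Drd2+ neurons, Gnb5 was lowest in PWK/PhJ (176 ± 19.9 CPM), with 192 ± 10.5 CPM in NZO/HlLtJ.

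Rgs6 had the widest strain differences of the members in projection neurons. In Drd1+ neurons the mice of NZO/HlLtJ had 208, 178, 152 and 96.6 CPM (159 ± 47.2) and those of NOD/ShiLtJ 45.4, 32.7, 42.1 and 42.9 CPM (40.8 ± 5.56), without overlap. In Drd2+ neurons, where Rgs6 is low, NZO/HlLtJ had 85.7, 77.8, 49.9 and 26.7 CPM (60.0 ± 27.0) and NOD/ShiLtJ 11.8, 7.41, 10.1 and 7.45 CPM (9.18 ± 2.14). All 4 NOD/ShiLtJ mice lay below the other 28 mice there, and the NZO/HlLtJ mean was 6.54 times theirs. The strain term had an adjusted p of 0.00425 in Drd1+ neurons, which became 0.0519 without batch 3, and of 5.77e-05 in Drd2+ neurons, where it stayed called in all alternatives. The log2 difference of NZO/HlLtJ from the other 7 strains was 1.33 (SE 0.25, adjusted p = 0.000479) in Drd1+ and 1.38 (SE 0.22, adjusted p = 9.98e-05) in Drd2+ neurons. NOD/ShiLtJ differed by -1.76 (SE 0.34, adjusted p = 0.00105) in Drd2+ neurons. Mice of one strain also differed widely in Rgs6: the median coefficient of variation within strains was 35.8% in Drd1+ neurons, compared with 5.68% for Rgs9.

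**Figure D3:**
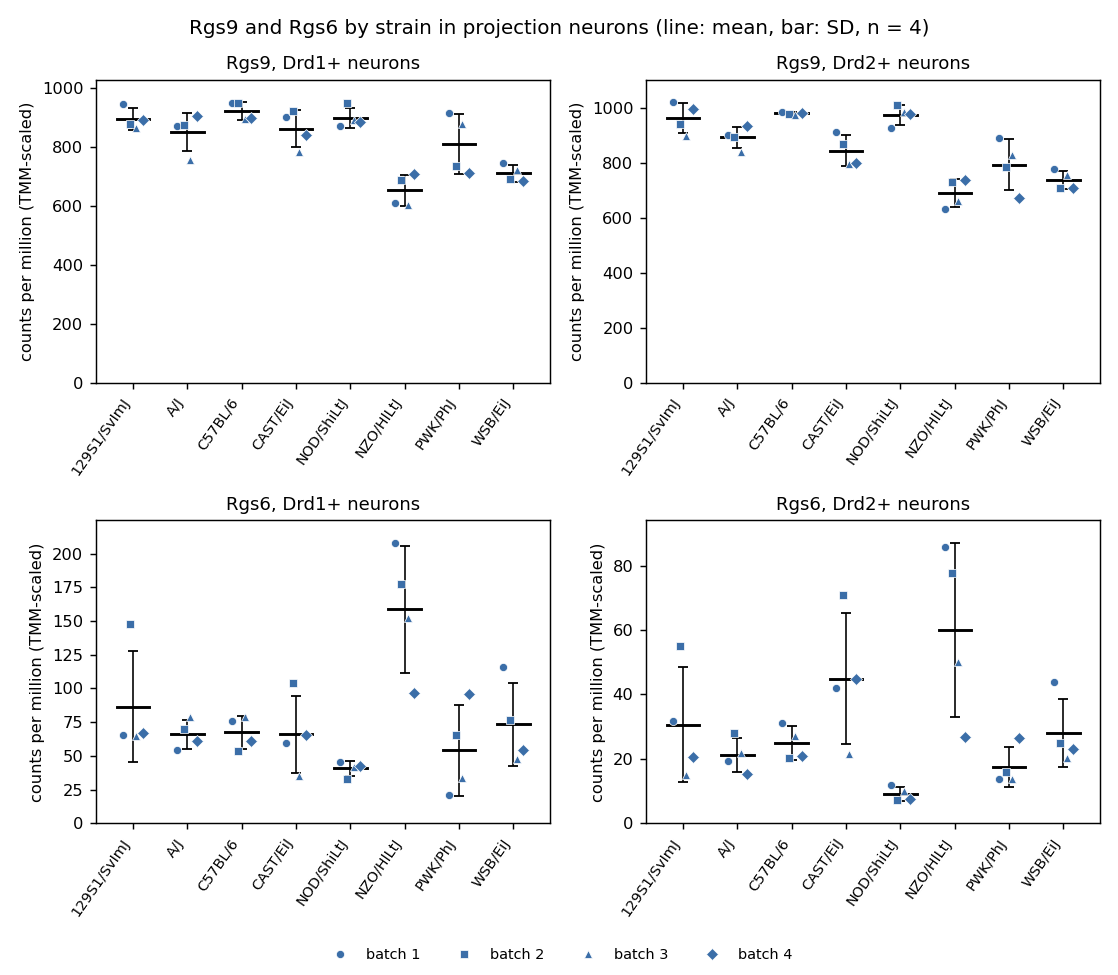
Rgs9 (top) and Rgs6 (bottom) in Drd1+ (left) and Drd2+ (right) neurons by strain, in TMM-scaled CPM. Points are mice with batches as symbols, lines are means and bars SDs of 4 mice. The NZO/HlLtJ mice have the lowest mean for Rgs9 and the highest for Rgs6 in both clusters, and the NOD/ShiLtJ mice have the lowest mean for Rgs6.

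The strain effect on Rgs6 differed between Drd2+ and Drd1+ neurons (adjusted p of the interaction = 1.17e-07 in edgeR with the mouse as a block, and 1 without the block). The fit without the block takes the Drd1+ and Drd2+ libraries of a mouse as independent and so ignores their pairing. In CAST/EiJ, the log2 difference of Drd2+ from Drd1+ neurons within mice was -0.56 ± 0.087, ranging from -0.68 to -0.48. In the other 7 strains its means lay between -2.07 in NOD/ShiLtJ and -1.34 in WSB/EiJ. The PWK/PhJ mice ran from -1.98 to -0.59 and so overlapped with CAST/EiJ, as no other strain did. Expressed as levels, CAST/EiJ was second only to NZO/HlLtJ in Drd2+ neurons (44.8 ± 20.3 CPM, log2 difference from the others 0.92, adjusted p = 0.00663, not called without batch 2 at 0.69) while its 65.9 ± 28.5 CPM in Drd1+ neurons lay among the other strains.

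Rgs6 in astrocytes followed another order. A/J was highest, with 1138, 976, 793 and 916 CPM (956 ± 143), and CAST/EiJ lowest, with 407, 321, 142 and 281 CPM (288 ± 111). All CAST/EiJ mice lay below the other 28. The strain term had an adjusted p of 1.17e-06, and the difference of CAST/EiJ from the other 7 strains was -1.16 (SE 0.16, adjusted p = 1.21e-06). NZO/HlLtJ, highest in projection neurons, had 602 ± 135 CPM in astrocytes. The interaction of strain with astrocytes and Drd1+ neurons was called (adjusted p = 0.00755) but was lost without batch 2 (0.223) or batch 3 (0.0684). In the second Drd1+ cluster Rgs6 was highest in NZO/HlLtJ (110.3 ± 31.9 CPM) and lowest in C57BL/6 (37.8 ± 22.6 CPM), with overlapping mice and an adjusted p of 0.00162, or 0.0993 without batch 4.

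The strain differences of Rgs7 were widest in astrocytes and oligodendrocytes and were also called in Drd2+ neurons and in the second Drd1+ cluster. In astrocytes the C57BL/6 mice had 933, 838, 788 and 685 CPM (811 ± 104) and the CAST/EiJ mice 210.5, 207, 189 and 163 CPM (193 ± 21.8). Between them stood A/J (654 ± 40.5), PWK/PhJ (548 ± 36.7), NZO/HlLtJ (446 ± 61.9), 129S1/SvImJ (357 ± 38.6), NOD/ShiLtJ (308 ± 33.6) and WSB/EiJ (246 ± 52.2). The groups at the ends did not overlap, and the F statistic of Rgs7 ranked 16 of 8207 genes in astrocytes (adjusted p = 3.10e-27). Against the other 7 strains C57BL/6 differed by 1.16 (SE 0.091, adjusted p = 1.08e-18), A/J by 0.81, PWK/PhJ by 0.50, CAST/EiJ by -1.18 (SE 0.12, adjusted p = 4.27e-13), WSB/EiJ by -0.83 and NOD/ShiLtJ by -0.43, the last not called without batch 1.

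In oligodendrocytes, where Rgs7 is low, the order of strains was another one. The NOD/ShiLtJ mice had 39.7, 74.3, 68.6 and 63.1 CPM (61.4 ± 15.2), A/J had 51.2 ± 12.8, 129S1/SvImJ 49.9 ± 11.2 and WSB/EiJ 41.8 ± 12.4 CPM. CAST/EiJ had 24.4 ± 6.34, NZO/HlLtJ 15.4 ± 7.72, PWK/PhJ 10.7 ± 2.04 and C57BL/6 8.54 ± 1.39 CPM, the last with 7.94, 9.89, 9.45 and 6.87 CPM in its mice. The upper 4 strains did not overlap with PWK/PhJ and C57BL/6. The strain term had an adjusted p of 2.58e-19, on 2 to 100 counts per mouse. C57BL/6 was thus highest of the strains in astrocytes and lowest in oligodendrocytes. Strain means of Rgs7 in Drd1+ neurons, the cluster with most nuclei, ranged from 461 to 519 CPM. Rgs9, also low in oligodendrocytes, had strain means of 33.1 to 50.6 CPM there. The part of free RNA in the Rgs7 values of oligodendrocytes was not tested.

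**Figure D4:**
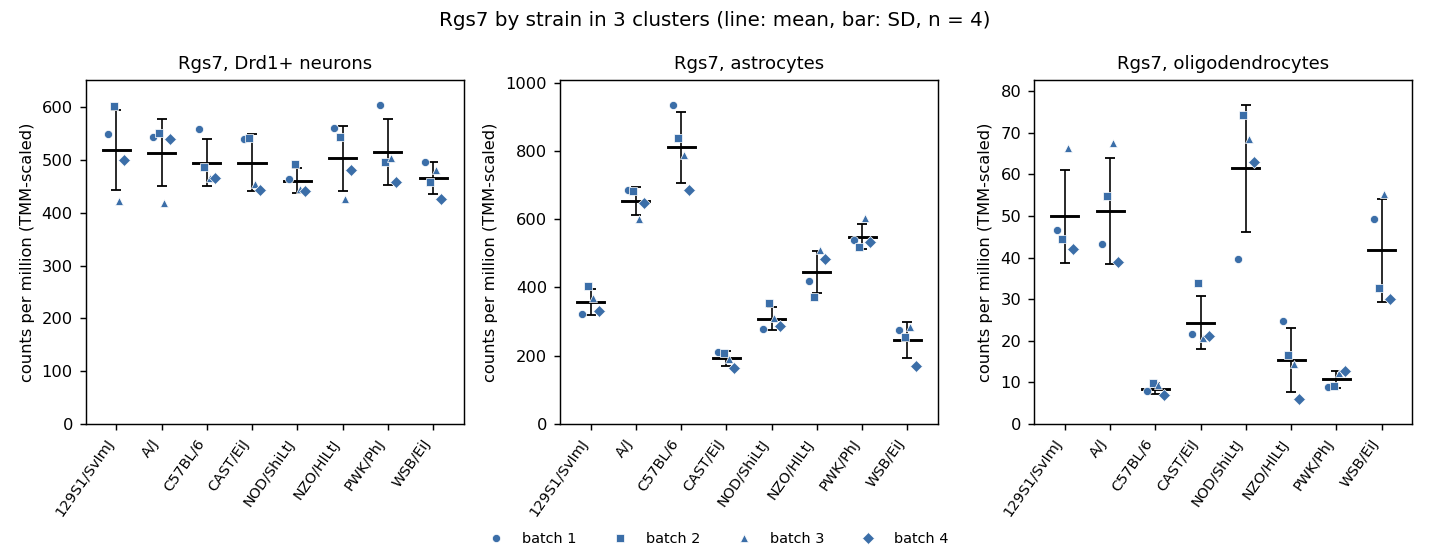
Rgs7 by strain in Drd1+ neurons, astrocytes and oligodendrocytes, in TMM-scaled CPM with separate scales. Points are mice with batches as symbols, lines are means and bars SDs of 4 mice. Strain means lie between 461 and 519 in Drd1+ neurons, fall from 811 in C57BL/6 to 193 in CAST/EiJ in astrocytes, and run from 61.4 in NOD/ShiLtJ to 8.54 in C57BL/6 in oligodendrocytes.

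The strain effect on Rgs7 in Drd1+ neurons was not called (adjusted p = 0.289), although it was without batch 3 (0.0307). Batch accounted for 49.3% of the variance of Rgs7 in Drd1+ neurons and 37.6% in Drd2+ neurons, against a median of 10.3% and 9.97% over all genes. Means in Drd1+ neurons were 540.0 ± 42.6, 522 ± 46.0, 453 ± 30.5 and 469.8 ± 37.0 CPM (n = 8) in batches 1 to 4. In Drd2+ neurons the strain term was called (adjusted p = 0.000426), with NOD/ShiLtJ (428 ± 32.4) and WSB/EiJ (433 ± 31.3) low and PWK/PhJ (538 ± 43.1) high. The interaction of strain and cluster was called for Rgs7 between oligodendrocytes and Drd1+ neurons (adjusted p = 3.44e-15) and between astrocytes and Drd1+ neurons (2.55e-21), and in all alternatives. In the second Drd1+ cluster CAST/EiJ was highest (756 ± 125) and NOD/ShiLtJ lowest (471 ± 45.00), with an adjusted p of 0.00308 that became 0.193 without batch 1 and 0.0632 without batch 4.

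Gpr158, the receptor that binds Rgs7 and Gnb5, also had strain differences in astrocytes (adjusted p = 1.84e-12). There C57BL/6 had 200 ± 26.7 CPM, NOD/ShiLtJ 171 ± 47.1, 129S1/SvImJ 118 ± 39.3, A/J 41.4 ± 19.6 and CAST/EiJ 28.2 ± 20.2 CPM. C57BL/6 and CAST/EiJ were thus at the ends for both genes, while A/J was second for Rgs7 and near the low end for Gpr158. Gnb5 was not called in astrocytes (adjusted p = 0.783).

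Of the R4 genes, Rgs8 and Rgs4 were highest in NOD/ShiLtJ in Drd1+ and Drd2+ neurons. In the second Drd1+ cluster Rgs8 was not called (adjusted p = 0.676), with the highest mean in PWK/PhJ (88.9 ± 21.8 CPM), and Rgs4 did not pass the expression filter. The NOD/ShiLtJ mice had 57.5, 59.7, 56.8 and 50.1 CPM of Rgs8 in Drd1+ neurons (56.0 ± 4.14) and A/J had 30.6, 34.9, 31.4 and 35.3 CPM (33.1 ± 2.42), which did not overlap. In Drd2+ neurons the same strains had 67.9 ± 6.41 and 42.1 ± 4.92 CPM. The adjusted p of the strain term was 4.42e-07 and 9.81e-06, and the call held in all 10 alternatives in both. NOD/ShiLtJ differed from the other 7 strains by 0.51 (SE 0.079, adjusted p = 4.60e-06) and 0.43 (SE 0.078, adjusted p = 6.15e-05). Rgs4 had 53.0 ± 7.40 CPM in NOD/ShiLtJ and 34.4 ± 9.70 CPM in NZO/HlLtJ in Drd1+ neurons (adjusted p = 0.00137), with overlapping mice. In Drd2+ neurons it had 57.5 ± 9.19 CPM in NOD/ShiLtJ and 33.8 ± 2.51 CPM in WSB/EiJ (adjusted p = 7.90e-05), without overlap. Rgs4 lay at 25.5 to 38.3 CPM in the strain means of oligodendrocytes, where it was not called (adjusted p = 0.657).

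Rgs2 was not called in Drd1+ neurons (adjusted p = 0.0673), Drd2+ neurons (0.166) or macrophages (0.150). Its strain means in Drd1+ neurons lay between 65.1 ± 12.7 CPM (PWK/PhJ) and 37.1 ± 12.1 CPM (WSB/EiJ), and in Drd2+ neurons between 89.7 ± 13.95 CPM (NOD/ShiLtJ) and 55.4 ± 13.01 CPM (NZO/HlLtJ). Mice of one strain could differ more than that, as in 129S1/SvImJ with 94.6, 53.4, 61.4 and 29.8 CPM in Drd2+ neurons. The result in Drd1+ neurons passed in DESeq2 (adjusted p = 0.0269), without batch 4 in edgeR (0.0397) and without an expression filter (6.82e-17). In Drd2+ neurons it passed without batch 1 (0.0173) and without a filter (6.12e-13). Strain accounted for 40.6% of the variance of Rgs2 in Drd1+ and 35.7% in Drd2+ neurons, against medians of 44.96% and 42.5% over all genes tested. The p without a filter thus does not measure the spread between mice. In macrophages NOD/ShiLtJ had 182 ± 15.6 CPM and PWK/PhJ 86.5 ± 29.6 CPM.

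Rgs10 was called in both projection neuron clusters and in macrophages, with different strains at the ends. In macrophages, its main site, the C57BL/6 mice had 500.3, 447, 599 and 335 CPM (470.3 ± 110.1) and the CAST/EiJ mice 202, 280.3, 248 and 247 CPM (244 ± 32.4), without overlap. The adjusted p was 0.0427 in edgeR, and 7 of 10 alternatives did not pass, among them DESeq2 (0.114) and the fits without batch 1 (0.208), batch 2 (0.143) and batch 4 (0.111). In Drd1+ neurons Rgs10 had 22.3 ± 2.44 CPM in NZO/HlLtJ and 12.8 ± 2.41 CPM in 129S1/SvImJ (adjusted p = 0.000327), and in Drd2+ neurons 30.6 ± 4.81 CPM in NZO/HlLtJ and 15.2 ± 3.73 CPM in C57BL/6 (7.61e-05). NZO/HlLtJ, highest in neurons, had 300.2 ± 138 CPM in macrophages. The pooled level in Drd1+ neurons (17.1 CPM) is close to the 17.9 CPM of oligodendrocytes and 16.8 CPM of astrocytes. Macrophage markers (5 genes) summed to 78.6 CPM in Drd1+ neurons, 71.9 CPM in Drd2+ neurons and 8734 CPM in macrophages. The part of free RNA in the neuronal values was not tested.

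Rgs14 was highest in C57BL/6 (20.8 ± 0.998 CPM) and lowest in WSB/EiJ (13.2 ± 2.96 CPM) in Drd1+ neurons (adjusted p = 0.00161). In Drd2+ neurons CAST/EiJ had 22.5 ± 2.89 CPM and NOD/ShiLtJ 13.3 ± 1.43 CPM (adjusted p = 0.0197), a call lost without batch 2 (0.193) or batch 3 (0.0525). The ends did not overlap in either cluster. C57BL/6 differed from the other 7 strains by 0.51 (SE 0.12, adjusted p = 0.00277) in Drd1+ neurons.

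Rgs20 differed between strains in astrocytes, where it is highest. PWK/PhJ had 1542, 1415, 2377 and 1685 CPM (1755 ± 429), C57BL/6 1533, 1582, 1671 and 1634 CPM (1605 ± 60.5), and WSB/EiJ 1102, 1125, 1209 and 959 CPM (1099 ± 104). The strain term had an adjusted p of 1.23e-06 and was called in all 10 alternatives. PWK/PhJ differed from the other 7 strains by 0.47 (SE 0.089, adjusted p = 4.14e-05) and C57BL/6 by 0.36 (SE 0.088, adjusted p = 0.00690), the latter not called without batch 2 or batch 4. In oligodendrocytes NOD/ShiLtJ had 27.1 ± 7.34 CPM and CAST/EiJ 8.38 ± 8.43 CPM with overlapping mice (adjusted p = 0.00827), and the call was lost without batch 4 (0.250) and without batch as a block (0.0844). In the second Drd1+ cluster C57BL/6 was highest (271 ± 67.6 CPM) and 129S1/SvImJ lowest (144 ± 73.0 CPM), with overlapping mice and an adjusted p of 0.00715 that did not hold without batch 2 (0.0729) or batch 3 (0.0901).

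**Figure D5:**
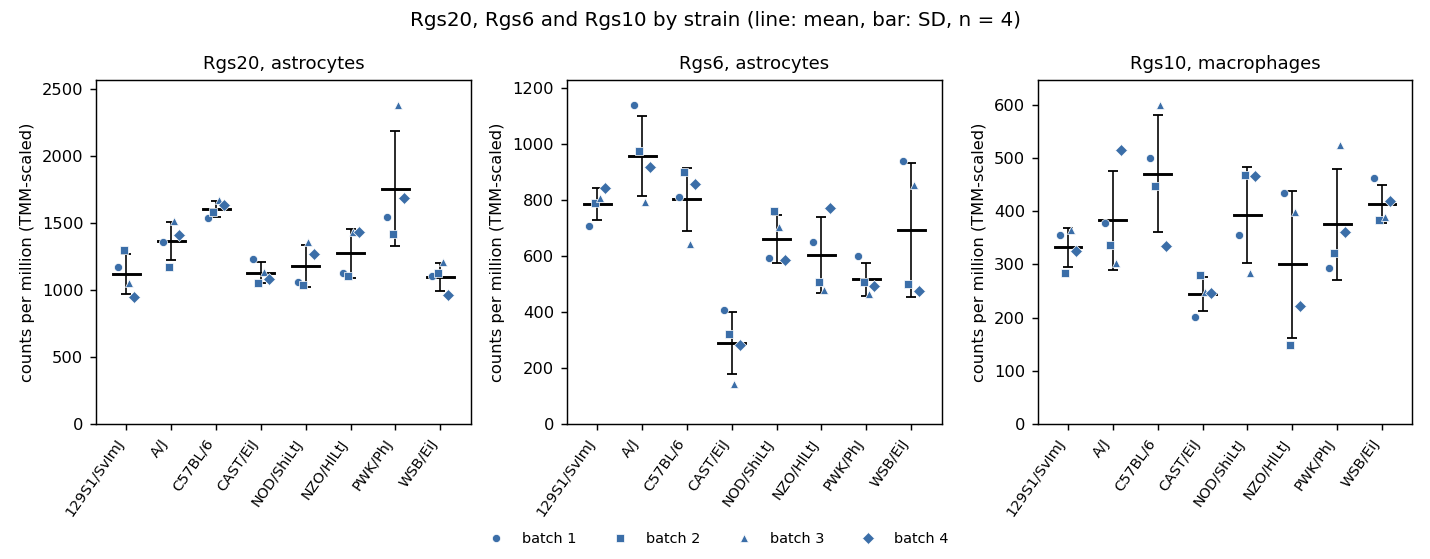
Rgs20 and Rgs6 in astrocytes and Rgs10 in macrophages by strain, in TMM-scaled CPM. Points are mice with batches as symbols, lines are means and bars SDs of 4 mice. PWK/PhJ has the highest mean of Rgs20, the 4 CAST/EiJ mice lie below all others for Rgs6, and CAST/EiJ has the lowest mean of Rgs10.

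In projection neurons the strain term of Rgs20 was not called in edgeR (adjusted p = 0.279 in Drd1+ and 0.418 in Drd2+ neurons). It passed only without an expression filter (5.56e-34 and 8.36e-18), and mice of one strain differed widely. Strain accounted for 32.1% of the variance of Rgs20 in Drd1+ and 26.1% in Drd2+ neurons, against medians of 44.96% and 42.5% over all genes tested. The p without a filter thus does not measure the spread between mice. The 129S1/SvImJ mice had 507, 580.4, 209 and 149 CPM in Drd1+ neurons and 497, 483, 262 and 147 CPM in Drd2+ neurons. The WSB/EiJ mice had 225, 267, 581 and 298 CPM there and 225, 250.4, 569.6 and 301 CPM in Drd2+ neurons. The same mouse was lowest in both clusters in 8 of 8 strains, and the same mouse was highest in 5 of 8. The log2 difference of Drd2+ from Drd1+ neurons within a mouse ran from -0.32 in CAST/EiJ to 0.33 in 129S1/SvImJ. Its interaction with strain was called (adjusted p = 0.00885), with a mean of -0.25 ± 0.052 in CAST/EiJ and 0.054 ± 0.034 in NZO/HlLtJ, and was lost in DESeq2 (0.0730) and without batch 1 (0.0917), batch 3 (0.0595) or batch 4 (0.0737), and without the mouse as a block (1).

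Over the members, the interaction of strain and cluster was called for 2 of 10 between Drd2+ and Drd1+ neurons (Rgs6 and Rgs20), where 4.58% of all genes tested were called. It was called for 2 of 10 between oligodendrocytes and Drd1+ neurons (Rgs7 and Rgs20; 16.9% of all genes) and for 2 of 10 between astrocytes and Drd1+ neurons (Rgs7 and Rgs6; 11.4%). The filter for a pair let in genes that passed in either cluster. Rgs6, Rgs8 and Rgs14 did not pass in oligodendrocytes alone, nor Rgs8, Rgs10 and Rgs14 in astrocytes alone. They are among the 10 of those pairs only through Drd1+ neurons. For Rgs20 between oligodendrocytes and Drd1+ neurons the adjusted p was 0.00917, and it was 0.141 in DESeq2, 0.0742 without batch 1, 0.462 without batch 4 and 0.366 without the block. Rgs9 had an adjusted p of 0.114 between Drd2+ and Drd1+ neurons, which passed in DESeq2 (0.0193) and without the 5% of nuclei with most UMIs (0.0491).

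The strains at the ends differed from gene to gene. In Drd1+ neurons NZO/HlLtJ had the lowest mean for 3 of the 7 called members (Rgs9, Rgs7bp and Rgs4) and the highest for 2 (Rgs6 and Rgs10). Its contrast with the other 7 strains was called higher for 2 members, where 11% of all genes tested were called higher, and lower for 4 (Rgs9, Rgs7bp, Rgs4 and Rgs8; 8.74%). The contrast of Rgs8 was lost in 6 of 10 alternatives, DESeq2 and the fits without batch 1, 2 or 3 among them, that of Rgs4 without batch 1, 2 or 3, and that of Rgs10 without batch 1. In Drd2+ neurons NOD/ShiLtJ was lowest for 3 of the 8 called members (Rgs7, Rgs6 and Rgs14) and highest for 2 (Rgs4 and Rgs8).

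The lists of R7 partners, other RGS genes, subunits, effectors and receptors were chosen with earlier results of these data known. Their shares and spans are thus a description only. Among these genes of the pathway, the strain term called 4 of the 5 other RGS genes tested in Drd1+ neurons, where it called 61.7% of all genes, and 3 of 3 in Drd2+ neurons, where it called 55.9%. The median span of the other RGS genes was 1.42 log2 units in Drd1+ neurons, beside 0.65 for all genes. Rgs11, the remaining R7 gene, had 81.7 ± 5.66 CPM in PWK/PhJ and 29.9 ± 3.92 CPM in NZO/HlLtJ in Drd1+ neurons (adjusted p = 6.33e-12), and Rgs17, an RZ relative of Rgs20, ran from 240.0 ± 28.8 in C57BL/6 down to 130 ± 6.45 CPM in PWK/PhJ (0.000288). Of the alpha subunits 6 of 11 were called in Drd1+ and 4 of 11 in Drd2+ neurons, and of the beta and gamma subunits 5 of 11 and 3 of 11, beside 61.7% and 55.9% of all genes. Median spans in Drd1+ neurons were 0.44 log2 units for the alpha subunits and 0.46 for the beta and gamma subunits, beside 0.65 for all genes. In Drd1+ neurons Gnai2, an inhibitory alpha subunit, had 21.1 ± 0.871 CPM in NZO/HlLtJ and 11.4 ± 4.21 CPM in C57BL/6 (0.00456). Gnaq, the alpha subunit of phospholipase C signaling, had 256 ± 25.5 and 209 ± 22.5 CPM in the same strains there (0.000461). The strain term of Gnai2 was not called in Drd2+ neurons (adjusted p = 0.396). Also in Drd1+ neurons, Gnb4 had 89.9 ± 13.9 CPM in NZO/HlLtJ and 32.6 ± 2.69 CPM in CAST/EiJ (3.48e-05), and Gng7, the gamma subunit that pairs with Golf in the striatum, 525 ± 28.8 CPM in PWK/PhJ and 363 ± 18.2 CPM in NOD/ShiLtJ (6.02e-06).

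Effectors were called in 10 of 11 cases in Drd1+ and 10 of 10 in Drd2+ neurons, beside 61.7% and 55.9% of all genes. Their median span was 1.10 log2 units in Drd1+ neurons and that of all genes 0.65. Kcnj3, a subunit of the potassium channel opened by beta and gamma subunits, had 48.9 ± 2.32 CPM in C57BL/6 but 7.37 ± 1.23 in PWK/PhJ (adjusted p = 5.08e-06). Kcnj9, another subunit, had 21.2 ± 5.03 CPM in NZO/HlLtJ and 7.90 ± 2.00 CPM in CAST/EiJ (9.36e-07). Of the receptors coupled to Gi and Gq, 8 of 11 were called in Drd1+ neurons (61.7% of all genes) and 9 of 11 in Drd2+ neurons (55.9%), with a median span of 0.97 log2 units in Drd1+ neurons. The serotonin receptor Htr2c had 378 ± 56.1 CPM in PWK/PhJ and 211 ± 13.96 CPM in CAST/EiJ (1.48e-10), and the mu opioid receptor Oprm1 58.5 ± 3.61 CPM in PWK/PhJ and 23.9 ± 5.26 CPM in NOD/ShiLtJ (1.58e-06).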

How the data were processed

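The authors deposited raw UMI counts per gene and nucleus for 4 batches, a table giving each barcode's mouse strain and cluster, and 1 list of accessible regions for all batches. Per the submitters' processing notes, bcl2fastq 2.20.0.422 and Cell Ranger ARC 2.0.0 were used, with mm10. Strains, clusters and the removal of doublets and poor nuclei were taken from the authors' table, and no doublet caller was run here. The 10 members and the pathway lists were chosen with earlier results of these data known.

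Counts were summed per mouse (batch and strain) and cluster. Libraries needed at least 10 nuclei, and clusters at least 3 mice of every strain. They held 1710451 to 9416806 counts in Drd1+ neurons (median 3011717), 165465 to 1883033 in oligodendrocytes, 38252 to 1085998 in astrocytes and 27325 to 365425 in macrophages. Genes passing edgeR's expression filter by strain were scaled by TMM and fitted with edgeR 4.0.16 (R 4.3.3, limma 3.58.1) by the robust quasi-likelihood method, with strain and batch as terms. The strain term, each strain against the mean of the other 7, and the interaction of strain and cluster (mouse as a block) were tested with Benjamini-Hochberg adjustment over all genes tested, at a threshold of 0.05. The SE of a contrast was worked back from its test, as the absolute log2 difference over the square root of the F statistic. Batch was kept in the model because the labels say that a batch is 1 pool of nuclei. The fits were tested on simulated data.

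The genes named are all members, the 2 genes of each pathway list with the largest strain F statistic in Drd1+ neurons at 10 CPM or more, and the 3 genes most like each member over the clusters. Likeness used log2 of CPM plus 1. Within-mouse differences over all mice and between neighbouring clusters used 0.5 added counts. Those given by strain (Rgs6, Rgs7 and Rgs20) used log2 CPM scaled by TMM in each cluster, with a prior count of 2. The CPM by strain were taken over the counts of the genes that passed the filter in the cluster, which differ between clusters. Thinning drew 1000 UMIs per nucleus, without shallower nuclei. Alternatives were size factors of the DESeq2 kind, no expression filter, DESeq2 1.42.0, each batch left out, at least 25 nuclei, removal of the 5% of nuclei with most UMIs, and no block. Tables were handled with Python 3.11.15, pandas 2.3.3, numpy 2.4.6 and scipy 1.17.1. Reads per nucleus of open chromatin and the sex of single mice were not used here.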

Additional observations from a re-analysis of the deposited data

Results flagged for a closer look

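In 9 of 160 groups of 4 mice, 1 mouse lay far from the other 3 by Dixon's criterion, and chance flags about 1 in 20 groups. Rgs6 in Drd1+ neurons was 148 CPM in the 129S1/SvImJ mouse of batch 2, while the other 3 had 64.9 to 66.9 CPM. Rgs7 in Drd1+ neurons was 419 CPM in the A/J mouse of batch 3, below the 541 to 552 CPM of the others, and in Drd2+ neurons it was 477 CPM in the NOD/ShiLtJ mouse of batch 2, above their 409 to 416 CPM. Rgs8 in Drd1+ neurons was 50.6 CPM in the C57BL/6 mouse of batch 2, against 36.1 to 37.6 CPM. Rgs2 in Drd1+ neurons was 57.2 CPM in the CAST/EiJ mouse of batch 4, against 40.1 to 42.8 CPM. Rgs10 in Drd1+ neurons was 18.3 CPM in the A/J mouse of batch 1, against 20.7 to 21.1 CPM. Rgs14 was low in 3 mice: 14.05 CPM in CAST/EiJ of batch 3 (others 17.7 to 18.1) and 9.78 CPM in PWK/PhJ of batch 1 (others 14.1 to 14.7) in Drd1+ neurons, and 14.3 CPM in C57BL/6 of batch 1 (others 22.1 to 23.6) in Drd2+ neurons.

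The strain effect differed between clusters, by edgeR's test of the interaction over 32 mice, for Rgs6 and Rgs20 between Drd2+ and Drd1+ neurons (adjusted p = 1.17e-07 and 0.00885). It differed for Rgs7 and Rgs20 between oligodendrocytes and Drd1+ neurons (3.44e-15 and 0.00917), and for Rgs7 and Rgs6 between astrocytes and Drd1+ neurons (2.55e-21 and 0.00755). Without the mouse as a block Rgs6 was not called between Drd2+ and Drd1+ neurons (adjusted p = 1), in a fit that ignores the pairing within mice. Rgs20 was lost in 5 of 10 alternatives there and in 4 of 10 between oligodendrocytes and Drd1+ neurons, Rgs6 between astrocytes and Drd1+ neurons in 2 of 10, and Rgs7 in none.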

How the results depend on the processing

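Of the 45 contrasts of 1 strain with the other 7 that were called in Drd1+ neurons, Drd2+ neurons and astrocytes, none changed direction under the alternatives, those in astrocytes being chosen after seeing the data. Contrasts in other clusters and differences within mice were not recomputed. Of the members called by the strain term, the 7 in Drd1+ neurons and 8 in Drd2+ neurons stayed within 1.5 times under each alternative. In oligodendrocytes the count of 2 became 1 to 2 without single batches. In macrophages 1 became 3 without an expression filter and 0 with DESeq2, at least 25 nuclei or without the 5% of nuclei with most UMIs, and 0 to 1 without single batches. In the second Drd1+ cluster 5 became 3 to 4 without single batches. Without a filter 2 were called in endothelium and 3 in Polydendrocyte/Oligodendrocyte, and in the latter 1 without the 5% of nuclei with most UMIs, against 0 in each. Without single batches the interaction called 1 to 2 members between Drd2+ and Drd1+ neurons, 1 to 3 between oligodendrocytes and Drd1+ neurons, and 1 to 2 between astrocytes and Drd1+ neurons. The 3 included Rgs8 without batch 3 (adjusted p = 0.0124 in edgeR), which did not pass the filter in oligodendrocytes alone. DESeq2 called 1 between oligodendrocytes and Drd1+ neurons. The 16 pairs of member and strain in Drd1+ neurons became 30 without a filter and 10 to 15 without single batches, and the 19 in Drd2+ neurons 15 to 20 without single batches. The cause of these shifts was not tested. Adjusted p values without a filter, as for Rgs20 and Rgs2 in projection neurons, do not measure the spread between mice. Without the replicate block the strain term called 7 members in Drd1+ and 8 in Drd2+ neurons, 1 in oligodendrocytes and 0 in macrophages, and the interaction called 0 between Drd2+ and Drd1+ neurons and 1 between oligodendrocytes and Drd1+ neurons. Without the block the interaction fit takes the libraries of a mouse as independent. The mean of Rgs7 in Polydendrocyte/Oligodendrocyte was 318 ± 121 CPM over all counts (n = 27). It was 457 CPM with TMM scaling over the counts of the genes that passed the filter there. Fits with at least 25 nuclei were not run for Nxph1+ interneurons, endothelium and Polydendrocyte/Oligodendrocyte, which had too few mice. Of 564 adjusted p values of the strain term under alternatives, 526 stayed on their side of the threshold, 24 no longer passed and 14 newly passed. Of 300 of the interaction, 12 no longer passed and 5 newly passed. The called contrasts lost their call in 52 of 450 refits (31 of 160 in Drd1+ neurons, 18 of 190 in Drd2+ neurons and 3 of 100 in astrocytes), and 25 of the 45 kept it in all 10. Levels of 2 to 100 counts per mouse, as for Rgs7 in oligodendrocytes, limit the precision of single mice.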
